A study of Rattus norvegicus with 6 samples.

Results

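The genes described here encode the proteins of the cytosolic ribosome of the rat. They were chosen by name, as every gene symbol of the array annotation made of Rpl or Rps with a number of up to 2 digits and an optional suffix, together with the stalk protein Rplp0 and the laminin receptor precursor Rpsa. Kinases of ribosomal protein S6 and the Rps19 binding protein were left out. The rule gave 116 of 17245 genes, of which 78 belong to the large subunit and 38 to the small subunit. Of the 116, 56 carry the plain name of a ribosomal protein and are called core genes below. The other 60 carry a symbol with an added l and number, or y2, which marks a further copy or relative of a core gene, and are called copies.

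Neural stem and progenitor cells of the adult rat hippocampus (NSPCs) were cultured as neurospheres for 4 days under 2 conditions. Proliferating A-NSPCs received FGF2 at 10 ng/ml, a mitogen for these cells. Quiescent Q-NSPCs received the same FGF2 and in addition BMP4 at 50 ng/ml, a bone morphogenetic protein under which they leave the cell cycle. Total RNA of 3 biological replicates per condition was hybridised to 1 Affymetrix Rat Gene ST array each, and the labels do not say whether the replicates came from separate animals, so the p-values measure the spread between these cultures. All values are log2 intensities made by RMA, which gives the arrays nearly the same distribution, so that a gene is high or low relative to the other genes of its array. A difference is given as Q-NSPC minus A-NSPC on the log2 scale, and a gene is said to have risen or fallen at an adjusted p under 0.05 in limma, a linear model fitted to all 17245 genes at once.

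The ribosome reads mRNA in its small subunit and joins amino acids in its large subunit, and each subunit is built in the nucleolus from rRNA and a fixed set of proteins. The mRNAs of ribosomal proteins are among the most abundant of a growing cell. In mammals most of them begin with a terminal oligopyrimidine motif, a cytosine followed by an unbroken run of pyrimidines, through which the kinase complex mTORC1 and the RNA-binding protein LARP1 govern their translation and stability. Quiescent stem cells of several tissues are known for a low rate of protein synthesis.

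The motif could be read for 94 of the 116 genes from RefSeq start sites (build GRCr8), 49 of them core genes and 45 copies. The windows below run from 15 bases before the annotated first base of the transcript to 15 bases from it on, so that the first base is letter 16 of 30. They show core genes whose intensity fell in Q-NSPCs (Rps18, Rps14, Rpl22, Rpl35 and Rplp0), core genes that differed little (Rpl17, Rpl19 and Rps15), and 2 copies, of which Rpl23al4 fell and Rpl27al2 rose. Capitals mark the unbroken run of C and T that holds the first base, where it is at least 5 long.
Rps18 (chr20:4933730-4933759, plus strand): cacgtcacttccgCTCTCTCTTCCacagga
Rps14 (chr18:56498245-56498274, plus strand): cccttccgTCTCTCTCTTTCCggtggagga
Rpl22 (chr5:168117946-168117975, plus strand): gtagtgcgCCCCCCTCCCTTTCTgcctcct
Rpl35 (chr3:43165907-43165936, minus strand): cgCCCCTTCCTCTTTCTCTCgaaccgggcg
Rplp0 (chr12:46718376-46718405, minus strand): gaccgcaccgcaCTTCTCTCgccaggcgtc
Rpl17 (chr18:70856261-70856290, plus strand): tagccttcgcgCTTCCTCTTCCTgttagcg
Rpl19 (chr10:83519049-83519078, plus strand): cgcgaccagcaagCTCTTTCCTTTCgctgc
Rps15 (chr7:10068101-10068130, minus strand): cgctgacaccgCTTCCTTTTCCCagcagcc
Rpl23al4 (chr15:35417534-35417563, plus strand): ctggaaactttgggggcttgggttctatct
Rpl27al2 (chr1:5995102-5995131, minus strand): ccagactctggctaTTTTCatacccacaaa
The 8 core genes shown are chosen examples that all hold the run. Core genes without it are not shown. Such genes occurred among those that fell (such as Rps19, Rps12 and Rpl23) and among those not called (such as Rps6 and Rpl18). Over all core genes with a start site, 30 of 49 (61.2%) had such a run, against 3204 of 27457 promoters in the table (11.7%) and 6 of 45 copies (13.3%). Among the core genes that fell it was found in 9 of 16, and among those not called in 21 of 33. A stricter form, a C at the first base with at least 4 further pyrimidines, was found in 20 of 49 core genes, in 2.63% of all promoters and in 0 of 45 copies. Some annotated starts lie a few bases from a tract, and a run of at least 8 pyrimidines within 20 bases on either side of the start was found in 36 of 49 core genes and in 15.5% of all promoters. It stood in 12 of the 16 that fell and in 24 of the 33 not called.

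Short motifs were searched on both strands of the 300 bases from 250 before the start to 50 from it on, and none of them overlaps another in its letters as searched. CACGTG, the E-box bound by Myc and its partners, was found in 4 of 49 core genes (8.16%) and in 6.65% of all promoters. ATGGCGG, letters bound by YY1, stood in 11 of 49 core genes (22.4%) against 5.22% of all promoters. CCGGAAG, letters bound by ETS factors such as GABP, stood in 12 of 49 core genes (24.5%) against 9.22% of all promoters. Of the 16 core genes that fell, 0 held the E-box, 5 held ATGGCGG and 3 held CCGGAAG. Of the 33 not called, 4 held the E-box, 6 held ATGGCGG and 9 held CCGGAAG. These counts describe letters near annotated starts, and binding was not measured.

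Ribosomal protein genes that changed were with 1 exception lower in Q-NSPCs. Of the 116 genes, 22 fell and 1 rose, against 6.2% of all genes that fell and 7.91% that rose. At an unadjusted p under 0.05 in limma, 49 were lower and 1 was higher, where 13.3% of all genes were lower and 16.2% were higher. All 3 Q-NSPC arrays lay below all 3 A-NSPC arrays in 58 of the 116 genes (50%), against 15.3% of all genes, and above them in 3 genes, against 18.7% of all genes. The differences were small, with a median of -0.21 (1.16-fold lower) against 0.01 over all genes. In RNA from a whole culture, fewer cells of one type and less of an mRNA per cell cannot be told apart.

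The 2 subunits were counted apart. In the large subunit 9 of 78 genes fell (11.5%) and 1 rose, with a median difference of -0.16. Over all genes 6.2% fell and 7.91% rose. In the small subunit 13 of 38 genes fell (34.2%) and 0 rose, with a median of -0.33 and no gene higher at an unadjusted p under 0.05 in limma, while the t-test of the methods put 1 higher. Among core genes alone the counts were 6 of 34 lower in the large subunit (17.6%, median -0.22) and 10 of 22 in the small subunit (45.5%, median -0.38). No core gene rose, also at an unadjusted p under 0.05 in limma, and 54 of the 56 had a negative difference. Groups did not overlap, with Q-NSPCs lower, in 21 of 34 and in 16 of 22 core genes, against 15.3% of all genes. The counts of lower genes changed with single arrays. Without A-NSPC replicate 1 or Q-NSPC replicate 3 both were 0, and without A-NSPC replicate 2, A-NSPC replicate 3 or Q-NSPC replicate 2 they were 5 and 6, 0 and 1, and 0 and 4 for large and small, while without Q-NSPC replicate 1 they were 14 and 19. The medians of both subunits stayed negative in each case. Whether the subunits differ from each other was not tested, since genes of a subunit share arrays and are not replicates. The subunits also differed in brightness, with a median intensity of 12.64 for large and 11.67 for small subunit core genes. Calls varied with brightness, as given below, and the counts of the 2 subunits were not compared at equal brightness. The part of brightness in the higher count of the small subunit was not tested.

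**Figure D1:**
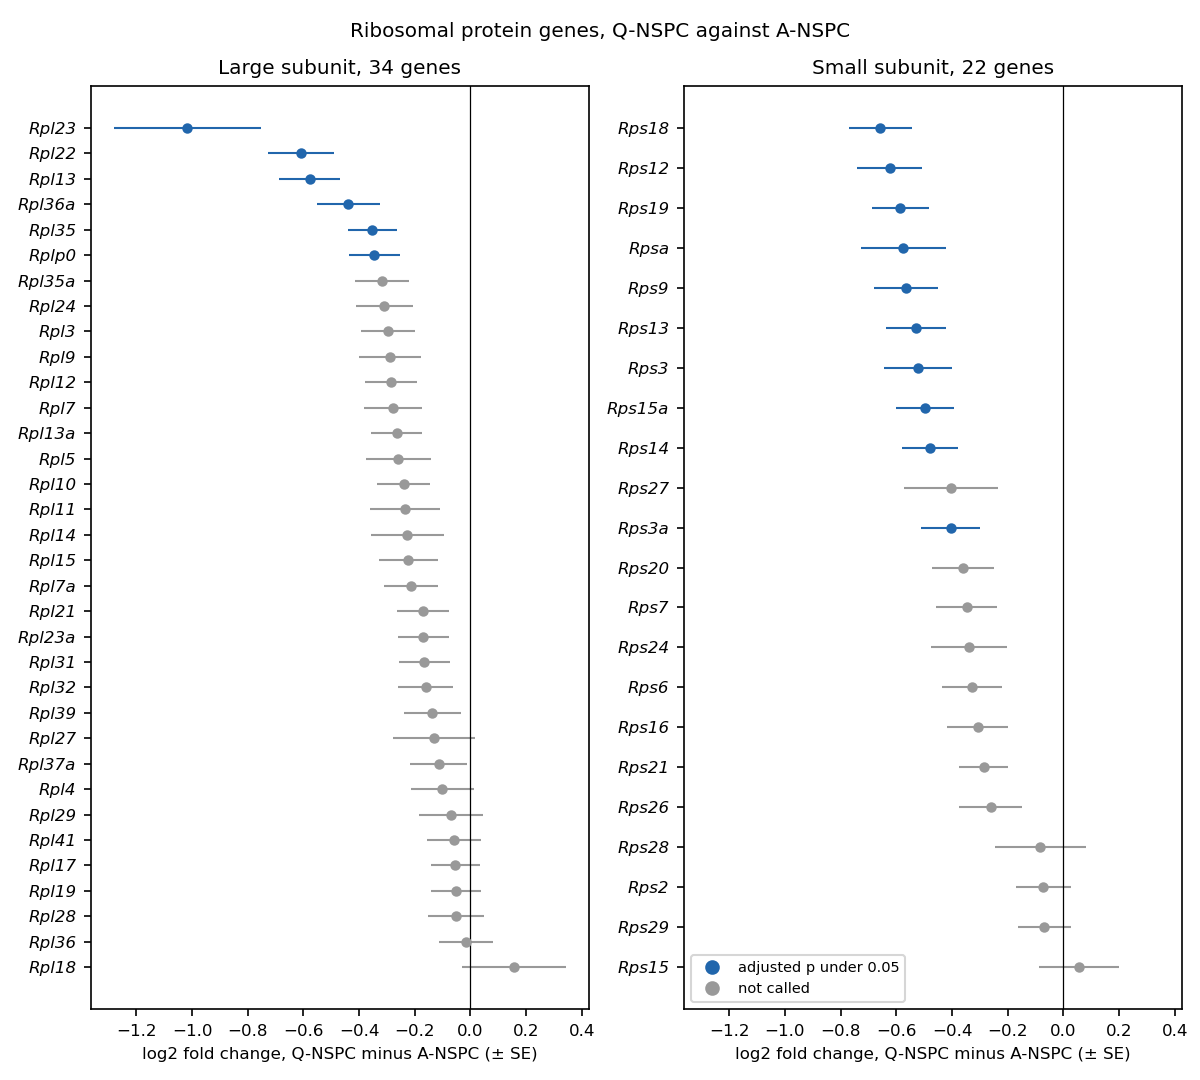
Log2 fold change (Q-NSPC minus A-NSPC, x axis) of the 34 core genes of the large subunit and the 22 of the small subunit, with bars for the standard error from limma (3 arrays per condition). The 6 and 10 genes that fell are in blue, and only Rpl18 and Rps15 lie right of 0.

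The arrays showed the shift one by one. The median deviation of the large subunit core genes from their A-NSPC mean was -0.16 in Q-NSPC replicate 1, -0.22 in replicate 2 and -0.29 in replicate 3, and it lay between -0.05 and 0.04 in the A-NSPC arrays. For the small subunit it was -0.29, -0.45 and -0.43 in the Q-NSPC arrays and between -0.06 and 0.04 in the A-NSPC arrays. Over all genes the same median stayed between -0.01 and 0.03 in the 6 arrays. Q-NSPC replicate 1 stood nearest to the A-NSPCs, with the highest of the 3 Q-NSPC values in 41 of 56 core genes.

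**Figure D2:**
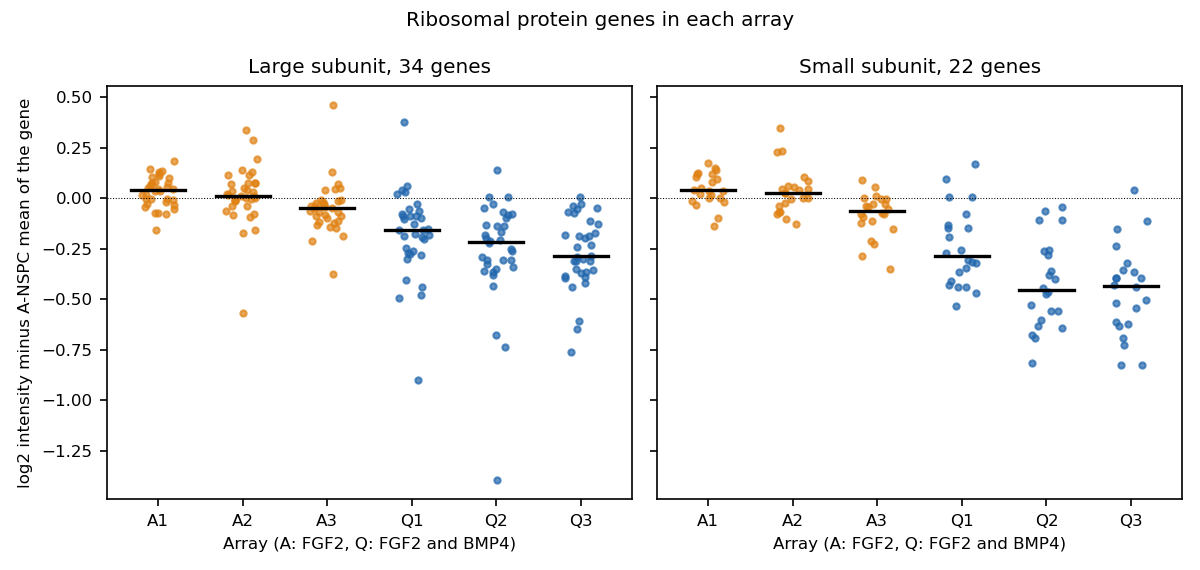
Deviation of each core gene from its A-NSPC mean (log2, y axis) in the 3 A-NSPC (orange) and 3 Q-NSPC (blue) arrays, with the median as a black line. The Q-NSPC medians are all below the A-NSPC medians, and in the small subunit Q-NSPC replicate 1 (-0.29) is nearer to 0 than replicates 2 (-0.45) and 3 (-0.43).

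In the small subunit the genes that fell encode proteins of its head, body and platform. Rps18, a protein of the head that contacts the tRNA in the peptidyl site, measured 12.12, 12.08 and 12.04 in the A-NSPC arrays and 11.61, 11.40 and 11.25 in the Q-NSPC arrays. The A-NSPC values lay within 0.1 of each other and every Q-NSPC value lay well below them. The difference was -0.66 ± 0.11 (SE, 1.58-fold lower, adjusted p = 0.0122). Its second probe set with a single symbol gave -0.65.

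Rps12, a protein of the beak of the small subunit, measured 10.78, 10.80 and 10.74 in A-NSPCs and 10.35, 9.96 and 10.15 in Q-NSPCs. The groups did not overlap, and the Q-NSPCs varied more (SD 0.19) than the A-NSPCs (SD 0.03). Rps12 fell by 0.62 (SE 0.12, adjusted p = 0.0153), and each of its 4 probe sets was lower at an adjusted p under 0.05 over all probe sets of the array, where 4.09% of all probe sets were lower. Rps19, needed to mature the small subunit and the gene most often mutated in human Diamond-Blackfan anaemia, measured 11.25, 11.31 and 11.24 in A-NSPCs and 10.83, 10.58 and 10.64 in Q-NSPCs. Again Q-NSPC replicate 1 was the highest of its group, yet below every A-NSPC array. The difference was -0.59 ± 0.10 (SE, adjusted p = 0.0129), and 9 of 9 probe sets of Rps19 were called lower, with differences from -0.68 to -0.56.

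Rps9 and Rps3 both lie where mRNA enters the small subunit. Rps9 measured 11.84, 11.64 and 11.74 in A-NSPCs and 11.33, 11.18 and 11.01 in Q-NSPCs, a difference of -0.57 ± 0.11 (SE, adjusted p = 0.0191). Rps3 measured 12.10, 11.90 and 11.92 in A-NSPCs and 11.66, 11.42 and 11.29 in Q-NSPCs, a difference of -0.52 ± 0.12 (SE, adjusted p = 0.0296). In both genes the groups were apart and the Q-NSPC values were spread more widely than those of the A-NSPCs. Rpsa, a protein of the small subunit also known as the precursor of the laminin receptor, measured from 10.92 to 11.19 in the A-NSPC arrays and 10.76, 10.40 and 10.21 in Q-NSPCs. Its Q-NSPC values ranged over more than 0.5, and the difference was -0.57 ± 0.15 (SE, adjusted p = 0.0424). Of its 2 probe sets (-0.57 and -0.44), 0 were called lower at an adjusted p under 0.05 over all probe sets.

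The other small subunit core genes that fell were Rps13 (-0.53, adjusted p = 0.0192), Rps15a (-0.50, adjusted p = 0.0214), Rps14 (-0.48, adjusted p = 0.0212) and Rps3a (-0.40, adjusted p = 0.0415). Rps13, Rps14 and Rps15a bind the small subunit rRNA directly, and haploinsufficiency of RPS14 in humans underlies the anaemia of the 5q- syndrome. Rps15a measured 10.39, 10.53 and 10.54 in A-NSPCs and 10.12, 9.89 and 9.97 in Q-NSPCs, with all 6 of its probe sets called lower. Rps14 was lower in 3 of 3 probe sets and Rps13 in 2 of 2.

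Rps6, the ribosomal protein phosphorylated by the kinases downstream of mTORC1, measured 13.20, 13.26 and 13.24 in A-NSPCs and 13.08, 12.79 and 12.84 in Q-NSPCs. Its groups did not overlap, but its difference of -0.33 had an adjusted p of 0.0791 and was not called. Rps20 (-0.36, adjusted p = 0.0661), Rps7 (-0.35, adjusted p = 0.0722) and Rps21 (-0.29, adjusted p = 0.0666) were likewise separate between groups and not called. At the other end stood Rps15 (0.06, adjusted p = 0.849), Rps29 (-0.07, adjusted p = 0.705), Rps2 (-0.07, adjusted p = 0.707) and Rps28 (-0.08, adjusted p = 0.805), whose groups overlapped. Rps15 measured 12.39, 12.57 and 12.05 in A-NSPCs and 12.51, 12.30 and 12.38 in Q-NSPCs. Its A-NSPC arrays spanned a wider range than its Q-NSPC arrays and held both its highest and its lowest value.

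In the large subunit the largest difference was that of Rpl23, a protein of the face towards the small subunit, which can also bind Mdm2. It measured 8.68, 8.01 and 9.04 in A-NSPCs and 7.68, 7.18 and 7.82 in Q-NSPCs. The groups were apart by less than 0.2, between A-NSPC replicate 2 and Q-NSPC replicate 3, and the SD of 0.52 in A-NSPCs was the widest of any core gene. The difference was -1.02 ± 0.26 (SE, 2.02-fold lower, adjusted p = 0.0399). The probe set lay at the 47.7th percentile of all genes, whereas the median core gene measured 12.38, so this is not a probe set of typical brightness for the family.

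Rpl22, an RNA-binding protein at the surface of the large subunit, measured 11.87, 11.58 and 11.80 in A-NSPCs and 11.27, 11.01 and 11.14 in Q-NSPCs. All Q-NSPC values were below all A-NSPC values, the difference was -0.61 ± 0.12 (SE, adjusted p = 0.0167), and 3 of 3 probe sets were lower. Rpl13 measured 12.05, 12.05 and 11.90 in A-NSPCs and 11.59, 11.32 and 11.35 in Q-NSPCs. Again the groups were apart, with a difference of -0.58 ± 0.11 (SE, adjusted p = 0.016). Of its 7 probe sets 7 had a negative difference and 6 were called lower.

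Rpl36a, which lies near the exit site for tRNA, fell by 0.44 (SE 0.11, adjusted p = 0.0379) with 3 of 3 probe sets lower. Rpl35, at the mouth of the tunnel through which the new peptide leaves, measured 11.91, 11.93 and 11.91 in A-NSPCs and 11.62, 11.55 and 11.53 in Q-NSPCs. Its arrays were tight in both groups (SD 0.01 and 0.05), and a difference of -0.35 ± 0.09 (SE) was enough for an adjusted p of 0.0354. Rplp0, the base of the stalk that recruits elongation factors, measured 13.03, 13.00 and 13.08 in A-NSPCs and 12.76, 12.70 and 12.62 in Q-NSPCs. It fell by 0.35 (SE 0.09, adjusted p = 0.0426), and the groups did not overlap. Rplp0 is in wide use as a reference gene in RT-qPCR.

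Rpl5 and Rpl11 form a particle with the 5S rRNA that binds Mdm2 and thereby restrains the breakdown of p53. Rpl5 measured 13.12, 13.06 and 13.28 in A-NSPCs and 13.03, 12.94 and 12.72 in Q-NSPCs, a difference of -0.26 with an adjusted p of 0.185. Rpl11 measured 11.96, 12.17 and 11.78 in A-NSPCs and 11.88, 11.66 and 11.66 in Q-NSPCs, a difference of -0.23 with an adjusted p of 0.264. Neither was called, and only the groups of Rpl11 overlapped. Of 3 probe sets that name Rpl5 with another symbol, the brightest, shared with its copy Rpl5l1, measured -0.44. It was called lower in limma over all probe sets (adjusted p = 0.0357), with the groups apart.

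Rpl3 (-0.30, adjusted p = 0.0788), close to the peptidyl transferase centre, and Rpl10 (-0.24, adjusted p = 0.131), among the last proteins to join the large subunit, were separate between groups and not called. The core genes nearest to 0 were Rpl36 (-0.02), Rpl28 and Rpl19 (both -0.05), and Rpl17 (-0.05), with adjusted p from 0.75 to 0.946. Rpl19 measured 13.45, 13.42 and 13.42 in A-NSPCs and 13.45, 13.33 and 13.36 in Q-NSPCs, and its groups overlapped. Rpl18 had the only positive difference of the large subunit core genes (0.16, adjusted p = 0.654). It measured 12.73, 13.03 and 12.32 in A-NSPCs and 13.07, 12.83 and 12.64 in Q-NSPCs, so that its A-NSPC arrays alone spread further than its groups differed.

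**Figure D3:**
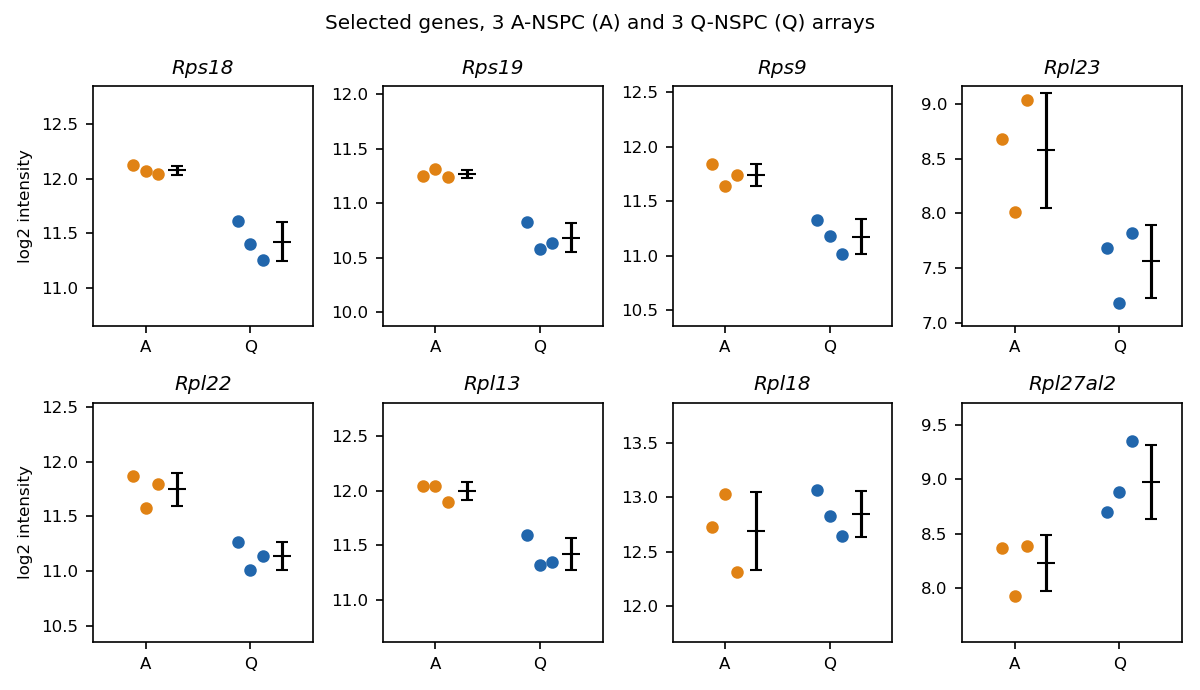
Log2 intensity (y axis, with a span of the same size in each panel) of 7 core genes and the copy Rpl27al2 in the 3 A-NSPC (orange) and 3 Q-NSPC (blue) arrays, with mean and SD in black. Rps18, Rps19, Rps9, Rpl22 and Rpl13 are lower in every Q-NSPC array, with mean differences from -0.66 (Rps18) to -0.57 (Rps9). Rpl23 is lower with a wide spread, Rpl18 overlaps and Rpl27al2 is higher.

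Copies were mostly dim. Of 60 copies, 6 fell (10%, against 6.2% of all genes) and 1 rose, against 7.91% of all genes, with a median difference of -0.10, and their median intensity was 7.50 against 12.38 for core genes. Of the large subunit copies, Rpl36Al2 (-0.70, adjusted p = 0.0276), Rpl31l10 (-0.52, adjusted p = 0.0495) and Rpl23al4 (-0.41, adjusted p = 0.0364) fell. Their core genes measured -0.44 (Rpl36a, fell), -0.16 (Rpl31, not called) and -0.17 (Rpl23a, not called). Rpl36Al2 measured 10.35, 9.77 and 10.05 in A-NSPCs and 9.16, 9.42 and 9.49 in Q-NSPCs, with Q-NSPC replicate 1 lowest here.

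Rpl27al2 was the only gene of the 116 that rose. It measured 8.37, 7.93 and 8.39 in A-NSPCs and 8.70, 8.89 and 9.36 in Q-NSPCs, and the groups did not overlap. The difference was 0.75 ± 0.19 (SE, 1.68-fold higher, adjusted p = 0.0381). It stayed positive but lost the call in limma when any single array other than Q-NSPC replicate 1 was left out (adjusted p from 0.0842 to 0.115), and also when p-values were adjusted over all probe sets. Another copy of the same gene, Rpl27al5, measured -0.33 (adjusted p = 0.0915), and Rpl27al1 measured 0.03. The rat genome holds 1113 symbols of ribosomal protein copies in GRCr8, among them copies described here such as Rpl27al2. A copy can be nearly identical to its core gene, so a probe set of a copy may also bind mRNA of the core gene, and the reverse. Of the 60 copies, 57 are annotated as protein coding in GRCr8.

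The calls also differed with brightness. Of the core genes with a mean log2 intensity of 10 to 12, 12 of 18 fell, with a median difference of -0.51. At 12 and above 3 of 33 fell (Rpl36a, Rplp0 and Rps3a), with a median of -0.17. Of the 5 core genes below 10, only Rpl23 fell. Over all genes of the array the share that fell was 10.0% from 10 to 12 and 5.65% at 12 and above, with medians of 0.02 and 0.00. The core genes at 12 and above thus had a smaller median difference than those from 10 to 12, with single genes from -0.44 to 0.16. Whether the upper end of the intensity scale takes part in that was not tested.

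**Figure D4:**
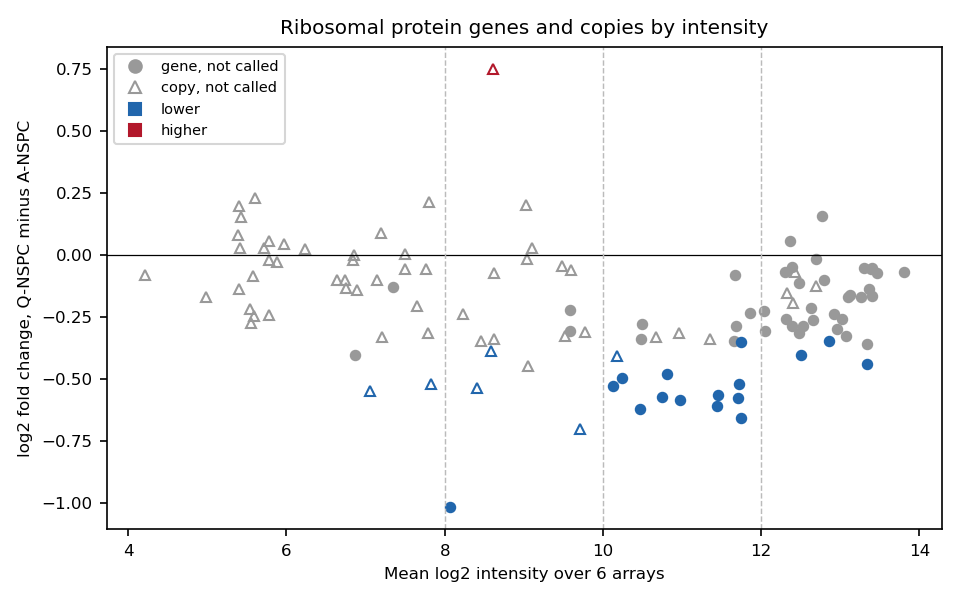
Log2 fold change (Q-NSPC minus A-NSPC, y axis) against mean log2 intensity over the 6 arrays (x axis) for core genes (circles) and copies (open triangles), with genes that fell in blue, the one that rose in red and dashed lines at 8, 10 and 12. The median core gene lies at -0.51 from 10 to 12 and at -0.17 at 12 and above.

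Groups of core genes by their history and role gave these counts. Of small subunit proteins found in all domains of life, 7 of 12 measured genes fell (median -0.49), and of the other small subunit core genes 3 of 10 fell (median -0.34). For the large subunit the counts were 3 of 14 (21.4%, median -0.27) and 3 of 20 (15%, median -0.16). Over all genes 6.2% fell. These groups are small, and differences between them were not tested. Of 14 measured genes on a list of those mutated in human Diamond-Blackfan anaemia, 1 fell (Rps19, 7.14% against 6.2% of all genes), with a median of -0.25. That list is not complete, as it lacks Rpl35 and Rps15a, which fell and are linked to the disease as well. Rack1, a protein of the small subunit head and a scaffold for signalling kinases that the name rule does not take in, measured -0.22 (adjusted p = 0.14).

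Coverage was incomplete. Of 80 cytosolic ribosomal proteins of the rat, 47 of the large and 33 of the small subunit, 57 had a probe set with a single gene symbol (the 56 core genes and Rack1), 13 were measured only by probe sets that also name a copy, and 10 were not analysed here. Each of the 13 had several shared probe sets, from 2 (such as Rpl6) to 7 (Rpl38), and only the brightest was used. These brightest ones had negative differences throughout, with 4 called lower and 0 higher at an adjusted p over all probe sets. Of all probe sets, 4.09% were lower and 4.53% higher. The other shared probe sets took no part in this count. None of the 13 was higher at an unadjusted p under 0.05. The 34 members with more than 1 probe set differed in how far these matched. Rps19 and Rps15a gave the same call in all of theirs, whereas Rpl13a ranged from -0.29 to 0.48 over 3 probe sets with none called.

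The mitochondrial ribosome has a separate set of proteins encoded in the nucleus. Of its 64 measured genes, 8 fell (12.5%) and 0 rose, against 6.2% and 7.91% of all genes, with a median difference of -0.12. In the cytosolic ribosome the share that fell was 11.5% in the large and 34.2% in the small subunit. Mrpl23 measured 11.13, 11.26 and 11.31 in A-NSPCs and 10.91, 10.25 and 10.26 in Q-NSPCs (-0.76 ± 0.18, SE, adjusted p = 0.0302). Mrps27 (-0.64, adjusted p = 0.0299), Mrps5 (-0.53, adjusted p = 0.045) and Mrps28 (-0.49, adjusted p = 0.034) fell as well.

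Other translation genes whose mRNAs carry the pyrimidine motif fell in 2 of 13 measured cases (15.4%, against 6.2% of all genes), with a median of -0.19. Eef1b2, a subunit of the exchange factor for elongation factor 1, fell by 0.49 (adjusted p = 0.0323). Npm1, a nucleolar chaperone of ribosome assembly, measured 11.23, 11.19 and 11.15 in A-NSPCs and 10.91, 10.23 and 10.34 in Q-NSPCs, a difference of -0.69 ± 0.17 (SE, adjusted p = 0.0334). Elongation factors Eef1a1 (-0.04) and Eef2 (-0.06) had adjusted p of 0.825 and 0.766. Eef1a1 had the brightest signal of these genes in every array, with values from 14.03 to 14.08.

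Of 16 measured chaperones and maturation factors of ribosomal subunits, 16 had a negative difference, with a median of -0.26. Of these, 3 fell (18.75%) and 0 rose, against 6.2% and 7.91% of all genes. Mrto4, which holds the place of the stalk on the pre-ribosome until Rplp0 takes it, fell by 0.64 (SE 0.11, adjusted p = 0.0107). Nob1, the nuclease that makes the last cut of the small subunit rRNA, fell by 0.52 (adjusted p = 0.0338). Grwd1, a chaperone of Rpl3, fell by 0.39 (adjusted p = 0.0307).

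Of 16 measured genes of mTORC1 and of the control of the pyrimidine motif, 2 fell (12.5%) and 1 rose, against 6.2% and 7.91% of all genes. Eif4ebp1, a repressor of cap-dependent translation that mTORC1 inactivates, measured 11.54, 11.14 and 11.51 in A-NSPCs and 10.69, 9.90 and 9.85 in Q-NSPCs (-1.25 ± 0.23, SE, adjusted p = 0.0141). Larp1b, a relative of Larp1, fell by 0.69 (adjusted p = 0.0152), and Larp1 itself measured -0.34 (adjusted p = 0.131). Sesn3, an inhibitor of mTORC1, measured 10.84, 11.20 and 11.04 in A-NSPCs and 11.81, 12.03 and 12.16 in Q-NSPCs (0.97 ± 0.13, SE, adjusted p = 0.00624). Mtor itself measured -0.12 (adjusted p = 0.559), and activity of the complex is not read by these arrays.

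Of the 11 genes of the Myc network, 3 rose and 0 fell, against 7.91% and 6.2% of all genes. Myc drives transcription of ribosome genes in many cells. The genes that rose were Mxd4 (0.67, adjusted p = 0.0217), Mxd1 (0.59, adjusted p = 0.0136) and Mxi1 (0.46, adjusted p = 0.0202), whose proteins are known to compete with Myc for the partner Max. Myc measured 10.64, 10.92 and 10.81 in A-NSPCs and 10.55, 8.80 and 9.22 in Q-NSPCs. Q-NSPC replicate 1 lay close to the A-NSPCs and the other two far below them, and the difference of -1.27 ± 0.38 (SE) had an adjusted p of 0.0619. Of 4 measured genes of p53 and its regulation, 0 were called by limma, and at an unadjusted p under 0.05 Cdkn1a, a target of p53, was lower (-0.63, adjusted p = 0.0658) and Mdm2 was higher (0.30, adjusted p = 0.0603).

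The 6 arrays had medians between 7.53 and 7.57 over all 29214 probe sets, and their number limits the precision. Of 8 NSPC markers, 2 rose (Msi1 and Pax6) and 0 fell, and Sox2 measured between 12.25 and 12.55. In limma 3 of the 8 were higher at an unadjusted p under 0.05 and 2 were lower. The lower ones were Nes (-0.57, adjusted p = 0.0644) and Fabp7 (-0.65, adjusted p = 0.162). Of 8 neuron markers, 5 rose (Gad1, Tubb3, Syt1, Snap25 and Stmn2) and Rbfox3 fell, and their mean level was 8.85 to 8.94 in A-NSPCs and 9.76 in Q-NSPC replicate 1, 10.27 in replicate 2 and 10.28 in replicate 3. The Q-NSPC array with the lowest neuron marker level was thus also the one whose core genes were nearest to A-NSPCs. For copies it was replicate 2, with median deviations of -0.09 (large) and -0.12 (small) against -0.10 and -0.14 in replicate 1. The part of neuron-like cells in the ribosomal result was not tested. Of 5 oligodendrocyte markers limma called 0, with 2 lower at an unadjusted p under 0.05, and their mean level was 8.67 to 9.01 in A-NSPCs and 8.84, 8.17 and 8.19 in the Q-NSPC arrays. The mean level of 6 microglia markers was at most 6.27 in any array and that of 4 endothelial and mural markers at most 7.06, both below the array medians, although single markers such as Cx3cr1 (7.24 to 7.58) and Rgs5 (7.29 to 7.82) reached or passed them.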

How the data were processed

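The deposited values are log2 intensities of 29214 probe sets on 6 arrays, made by the authors with RMA, and the submitters' processing notes name Affymetrix Expression Console and Partek 6.10. No step was repeated, and 0 columns belong to other series. Of these probe sets, 18644 carry 1 gene symbol, 962 several and 9608 none, and the brightest probe set over the 6 arrays stood for each of 17245 genes. No gene was left out as dim. Q-NSPCs and A-NSPCs were grouped by the sample labels and compared with limma 3.58.1 in R 4.3.3 (lmFit, eBayes without trend, two-sided), and the p-values of all genes were adjusted together after Benjamini and Hochberg. Probe sets with several symbols were judged in a fit of all probe sets, and the brightest of them stood for each gene. The procedure was tested on simulated data.

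The members and gene lists were chosen with earlier results of these data known. The genes named by rule are the 6 most negative and 2 most positive core genes or copies of each subunit, those that rose, copies with their core gene, stalk proteins, Rpl5, Rpl11, Rack1 and up to 4 called genes per other list. Copies that were not called are given as counts, some genes are not reported here by name, and other genes were named after their values were seen. Start sites come from the RefSeq promoter table of GRCr8, 1 per gene. Protein sequences and scan files were not used here. Alternatives were repeated normalization, the mean of probe sets, a filter on dim genes, other variance models, the replicate block, single arrays left out, the methods' t-test and adjustment over all probe sets.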

Additional observations from a re-analysis of the deposited data

Results flagged for a closer look

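Of the ribosomal proteins outside the 116 genes, 4 that were measured only by probe sets that carry the symbol of the gene and of at least 1 copy, were lower in Q-NSPCs. They were only counted above, and their probe sets took no part in the test of the 116 genes. The values are those of the brightest shared probe set of each gene. Rpl8 differed by -0.57 (adjusted p = 0.023 in limma over all probe sets), Rpl27a by -0.45 (adjusted p = 0.0347), Rpl30 by -0.42 (adjusted p = 0.0487) and Rps23 by -0.40 (adjusted p = 0.0339). In each of them the 3 Q-NSPC arrays lay below the 3 A-NSPC arrays. Rpl27a is the core gene of Rpl27al2, the copy that rose. Such a probe set cannot tell the gene from its copy.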

How the results depend on the processing

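With 3 arrays per condition the count of calls depended on single arrays, whereas the sign of the medians did not. No gene that fell changed sign under any alternative. The median difference stayed between -0.19 and -0.15 for the large subunit and between -0.37 and -0.28 for the small subunit. With 1 array left out, the lower calls ranged from 0 to 14 in the large subunit (main count 9) and from 0 to 19 in the small subunit (main count 13), and the higher calls in the large subunit from 0 to 1. Without A-NSPC replicate 1 both lower counts were 0, without A-NSPC replicate 2 they were 5 and 6, without A-NSPC replicate 3 they were 0 and 1, without Q-NSPC replicate 2 they were 0 and 4, and without Q-NSPC replicate 3 both were 0. The share of all genes that fell dropped as well, to 0.591%, 2.89%, 0.823%, 1.54% and 0.713% in this order. Without Q-NSPC replicate 1 the counts were 14 and 19, and 10.9% of all genes fell. The replicate block left 4 lower calls in the large subunit and 10 in the small, with Rplp0, Rpl35, Rpl36a and Rps3a among those lost (adjusted p from 0.0555 to 0.0925). Same-numbered arrays did not deviate from their group means together (r = -0.05, 0.01 and -0.03), so the numbers are not taken as pairs. The methods' t-test gave 30 and 22 lower genes and 1 higher gene in each subunit at an unadjusted p under 0.05, and 0 calls in either direction after Benjamini-Hochberg adjustment, as for all genes. Adjusted over all probe sets, 7 and 10 genes fell and Rpl27al2 was no longer called, so that 0 rose. Repeated normalization, means of probe sets, a filter on dim genes and another variance model gave 7 to 13 lower calls in the large and 13 to 16 in the small subunit.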
